A study of Homo sapiens with 3 samples.

Results

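The mRNAs of HIF1A, CCND1 and E2F1 were followed across 3 RNA pull-downs from J82 cells, an established line grown from a human bladder cancer. They were chosen by name, as mRNAs studied as targets of the RNA-binding protein ZFP36L1 in bladder cancer, with earlier results of these data known. The rule itself uses no measured value. They are 3 of the 52989 genes and 19 of the 181854 transcripts in the deposited tables that GENCODE 29 names. All 3 passed the minimum mean of 10 counts over the libraries, as did 14081 genes in all. Lysate of J82 cells, grown without any stated treatment, supplied the RNA, which was bound by control GST (glutathione S-transferase, a protein tag), by GST-ZFP36L1 wildtype or by the GST-ZFP36L1-Ala mutant. The GST tag was therefore common to all groups, the residues changed to alanine are not given in the labels, and each group is 1 library. Without replicates no p-value could be given, and every interval printed here covers counting error only.

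ZFP36L1 belongs to the ZFP36 (tristetraprolin) family, whose paired zinc fingers bind AU-rich elements in 3' untranslated regions and recruit deadenylation and decay factors. Its members are best known for shortening the life of cytokine, growth-factor and cell-cycle mRNAs. HIF1A encodes the oxygen-regulated subunit of hypoxia-inducible factor 1, CCND1 encodes cyclin D1, the partner of CDK4 and CDK6 that starts RB phosphorylation, and E2F1 encodes a transcription factor that RB holds back.

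All 3 mRNAs carried the core heptamer of the family, TATTTAT in DNA letters (UAUUUAU in RNA), in the 3' UTR of their leading transcript. HIF1A-201 and E2F1-201 held 3 sites each, and CCND1-201 held 1. The 5 windows with these sites are printed below in the sense direction from the GENCODE 29 transcripts, with the site or overlapping pair of sites in capitals, because together they hold every core site in these 3' UTRs. Positions are GRCh38.
HIF1A window 1, chr14:61747134-61747162, plus strand: ctaaagcagtcTATTTATattttctacat
HIF1A window 2, chr14:61747348-61747376, plus strand: gcaccttttTATTTATTTATttttggcta
CCND1 window, chr11:69652694-69652722, plus strand: gctaaaaagtaTATTTATtgcagaggatg
E2F1 window 1, chr20:33676153-33676181, minus strand: atggagcgtTATTTATTTATcgaggcctc
E2F1 window 2, chr20:33675997-33676025, minus strand: cctgggtgattTATTTATtgggaaagtga

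HIF1A and E2F1 shared 1 arrangement, a pair of heptamers that overlap and start 4 bases apart, in HIF1A window 2 and E2F1 window 1. That arrangement stood in the 3' UTR of 1.83% of the 11449 tested genes with an annotated 3' UTR. The flanks differed: the HIF1A windows were 75.9% A or U each, the CCND1 window 69.0%, and the E2F1 windows 58.6% and 62.1%. Each 29-base window occurred in no other gene's transcripts among those joined.

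The 3' UTR of HIF1A-201 ran from 61746940 to 61748258 on chromosome 14 (1319 bases), with sites starting 206 bases after the stop codon and, for the pair, from 418 bases. For E2F1-201 it ran from 33675683 to 33676731 on chromosome 20 (1049 bases), with the pair 560 and the single site 718 bases after the stop codon. CCND1-201 had a longer 3' UTR, 3192 bases from 69651283 to 69654474 on chromosome 11, and its single site lay 1423 bases in. The heptamer was searched on the sense strand only, with overlapping matches counted, and 31% of the 11449 genes held at least 1 while 5.46% held at least 3. Among genes whose 3' UTR length was within 20% of the member's, 1.95% held as many sites as HIF1A or more, 1.90% as many as E2F1 or more, and 58.6% as many as CCND1 or more. A match describes the sequence and does not show binding.

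**Figure D1:**
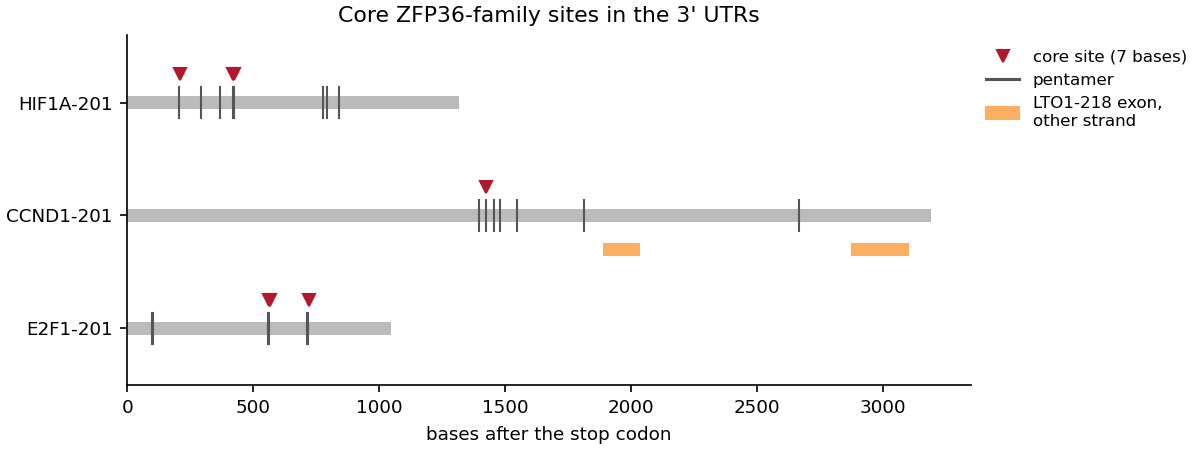
Position of the core sites (triangles) and of the shorter AU-rich pentamer (ticks) in the 3' UTRs of HIF1A-201, CCND1-201 and E2F1-201. The horizontal axis is bases after the stop codon, an overlapping pair appears as 1 triangle, and orange bars are exons of a transcript of LTO1, an opposite-strand gene. The single CCND1 site lies upstream of both LTO1 exons.

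Depth was similar, at 19137867 (GST), 19845386 (wild type) and 19153483 (Ala mutant) estimated counts per library. The name of the GST table carries another run code than those of the ZFP36L1 tables, so the run and the absence of ZFP36L1 cannot be told apart. KRT18 and VIM led the J82 marker lists, with 4 of 13 epithelial or urothelial and 5 of 7 mesenchymal markers at 10 counts or more in each library. Summed over each list, the epithelial markers came to 712 TPM (transcript abundance per length) with GST, 62.6 with wild type and 1079 with the mutant, and the mesenchymal markers to 1014, 100.3 and 645, and their part in the members' values was not tested. Summed leukocyte, erythroid and endothelial markers were at most 0.693, 0.340 and 0.0047 TPM in any library. Levels below are shares of a library, so more of an RNA and less of the others cannot be told apart. Shares are given as CPM, counts relative to a fixed library total after TMM scaling with edgeR, and their 95% intervals are exact for the count.

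HIF1A (ENSG00000100644) gave 788 estimated counts with GST, 1164 with wild-type ZFP36L1 and 460 with the Ala mutant. As a share of the library these were 41.8 CPM (39.0 to 44.9) with GST, 58.4 CPM (55.1 to 61.8) with wild type and 26.9 CPM (24.5 to 29.5) with the Ala mutant. HIF1A was thus highest with wild type and lowest with the mutant, and no pair of intervals overlapped.

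CCND1 (ENSG00000110092) gave 4777, 5594 and 5518 estimated counts with GST, wild type and Ala mutant. The shares were 254 CPM (247 to 261) with GST, 281 CPM (273 to 288) with wild type and 323 CPM (315 to 332) with the mutant. With TMM scaling the cyclin D1 mRNA was lowest with GST and highest with the mutant, whereas by TPM it was highest with wild type. Its CPM had intervals that did not overlap and a narrower relative spread than that of the other members.

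E2F1 (ENSG00000101412) gave 2426 estimated counts with GST, 5253 with wild type and 2915 with the Ala mutant. Its shares were 129 CPM (124 to 134) with GST, 263 CPM (256 to 271) with wild type and 171 CPM (164 to 177) with the mutant. E2F1 was highest with wild type and lowest with GST, and these intervals did not overlap either.

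**Figure D2:**
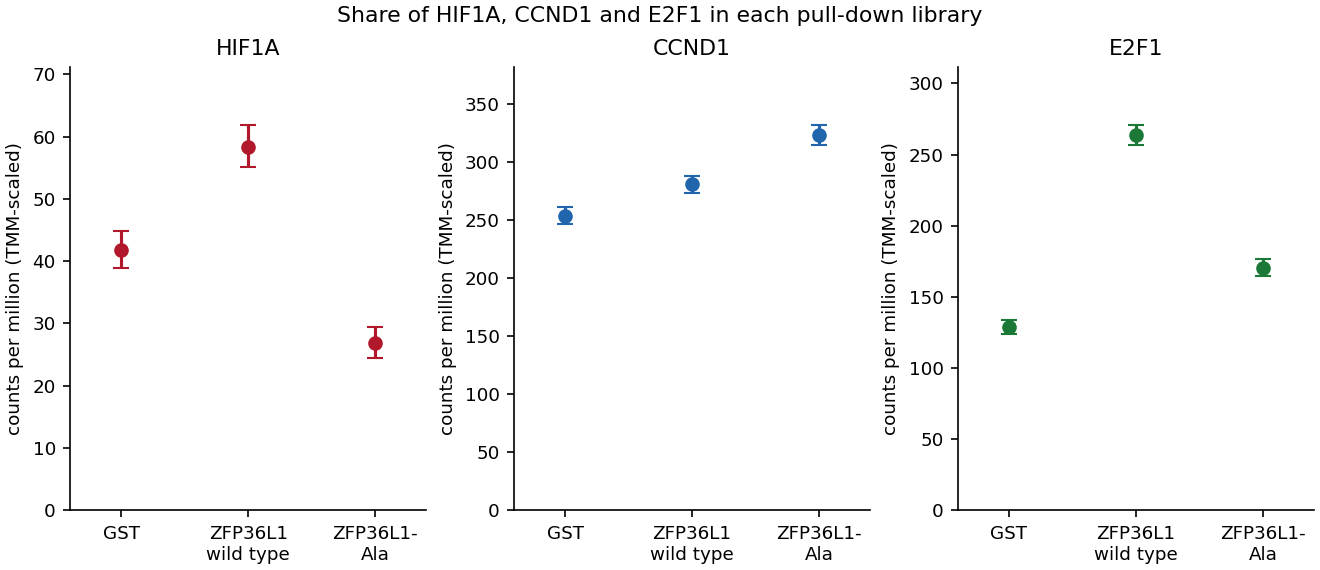
TMM-scaled CPM of HIF1A, CCND1 and E2F1 (vertical axes, each from 0) in the GST, wild-type and Ala libraries. Points are 1 library each and bars are exact 95% counting intervals. HIF1A and E2F1 peak at 58.4 and 263 with wild type, while CCND1 peaks at 323 with the Ala mutant on this scale and, by TPM, with wild type.

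Compared per length, in TPM, the order of the members differed between libraries. With GST, CCND1 stood at 47.2 TPM, E2F1 at 42.5 and HIF1A at 9.50. With the Ala mutant the order was the same, CCND1 at 49.8 TPM, E2F1 at 46.3 and HIF1A at 7.37. With wild type E2F1 came first at 100.3 TPM, before CCND1 at 60.1 and HIF1A at 15.6. HIF1A was therefore the least abundant of the 3 in every library, and E2F1 and CCND1 changed places in the wild-type library. CCND1 and E2F1 lay close together with GST and with the mutant, and there is no replicate spread to read those gaps against.

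Setting wild-type ZFP36L1 against GST asks which RNAs the tagged protein brought down beyond the tag. A gene was called higher or lower when its ratio was at least 2-fold and the 95% counting interval excluded 1. E2F1 was 2.05-fold higher with wild type (log2 ratio 1.03, 0.96 to 1.10) and was called. HIF1A was 1.40-fold higher (log2 ratio 0.48, 0.35 to 0.61) and CCND1 1.11-fold higher (log2 ratio 0.15, 0.09 to 0.20), both under the 2-fold limit. The HIF1A value turned to -0.61 when a fit on GC content and length was subtracted. So 1 of 3 members was called higher, where 25.5% of all genes tested were, and 0 were called lower, where 34.2% were.

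Over all genes the median log2 ratio of wild type to GST was -0.03, with an interquartile range from -1.89 to 1.02. E2F1 stood at the 75.3 percentile of all genes, HIF1A at the 61.1 and CCND1 at the 53.6. E2F1 lay close to the fold limit: with a minimum mean of 100 counts in place of 10, its log2 ratio was 0.98 and it was not called. For scale, the known family targets CXCL1, TNF and NFKBIA were 9.19-fold, 6.59-fold and 8.17-fold higher with wild type, and the 3 members were all below them.

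The Ala mutant against GST shares its GST library with the previous comparison, so the values are given side by side without a measure of likeness. With 0 of 3 members past 2-fold, none was called. HIF1A was 1.55-fold lower with the mutant (log2 ratio -0.64, -0.81 to -0.47), CCND1 1.27-fold higher (log2 ratio 0.35, 0.29 to 0.40) and E2F1 1.32-fold higher (log2 ratio 0.41, 0.33 to 0.48). Among all genes 9.00% were called higher and 5.15% lower, with a median of 0.04 and an interquartile range from -0.37 to 0.49. HIF1A, at the 13.6 percentile, lay below that range, and CCND1 and E2F1 lay inside it at the 68.2 and 70.8 percentiles.

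Wild type against the Ala mutant asks what the alanine changes altered with the tag and the protein backbone held the same. HIF1A was 2.17-fold higher with wild type (log2 ratio 1.12, 0.96 to 1.28) and was called. E2F1 was 1.54-fold higher (log2 ratio 0.63, 0.56 to 0.69), under the limit, but was called from TPM (1.11) and after a fit on GC content and length (3.30). CCND1 had a log2 ratio of -0.20 (-0.26 to -0.15). So 1 of 3 members was called higher, where 30.1% of all genes were, and 0 lower, where 36.0% were. The sign for CCND1 depended on the scaling: it was 0.12 when libraries were scaled by totals without the 20 most abundant genes and 0.27 from the TPM values.

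**Figure D3:**
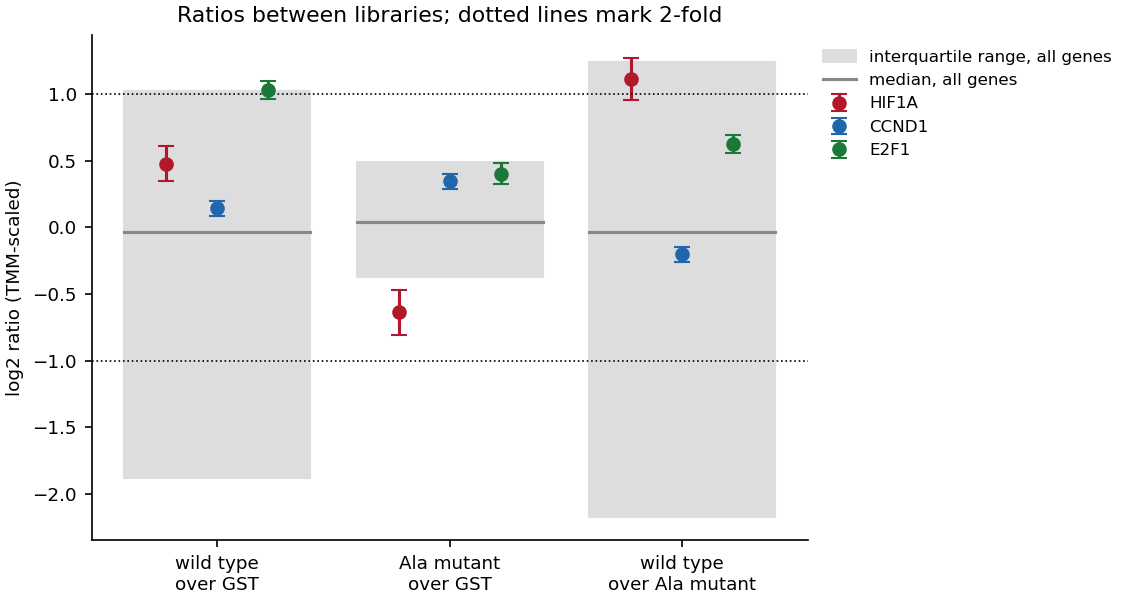
Log2 ratios (vertical axis, TMM-scaled) of HIF1A, CCND1 and E2F1 in the 3 comparisons, with 95% counting intervals as bars, the median of all genes tested as a grey line and their interquartile range as a grey band. E2F1 passes 2-fold (dotted lines) in wild type over GST at 1.03, and HIF1A in wild type over Ala mutant at 1.12.

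Ratios between members within a library do not depend on how libraries are scaled. For every CCND1 count there were 0.508 E2F1 counts with GST, 0.939 with wild type and 0.528 with the Ala mutant. Relative to CCND1, E2F1 was thus 1.85-fold higher with wild type than with GST (1.74 to 1.97) and 1.78-fold higher than with the mutant (1.68 to 1.88). These 95% intervals are of the odds ratio, computed on its log and given as folds. The mutant and GST differed by a ratio of 1.04 (0.973 to 1.11), an interval that includes 1.

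HIF1A against CCND1 was 0.165 with GST, 0.208 with wild type and 0.0834 with the mutant. That ratio was 1.26-fold higher with wild type than with GST (1.14 to 1.39), and with the mutant it was 0.505 times that of GST (0.448 to 0.571). Between wild type and mutant it differed 2.50-fold (2.23 to 2.80). HIF1A against E2F1 was 0.325 with GST, 0.222 with wild type and 0.158 with the mutant, so E2F1 gained on HIF1A in both ZFP36L1 libraries. Ratios to CCND1 leave out LTO1 transcripts that overlap it, an addition chosen after seeing the data. With these added, the CCND1 log2 ratio of wild type to GST was 0.60, above 0.48 for HIF1A, so that direction turned. For Ala mutant over GST it was 0.55, above 0.41 for E2F1.

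The members were next set beside genes with the same number of sites. Among the 330 genes with 3 heptamers in the 3' UTR the median log2 ratio of wild type to GST was 1.18, and HIF1A and E2F1 stood at the 21.5 and 44.2 percentiles of that group. Among the 2103 genes with 1 heptamer the median was 0.77, and CCND1 stood at the 30.4 percentile. For wild type over Ala mutant HIF1A was at the 33.6 percentile, E2F1 at the 17.0 and CCND1 at the 22.8 of the same groups. All 3 mRNAs were thus below the median of genes with their number of sites in both comparisons with wild type. For Ala mutant over GST HIF1A was at the 26.1 percentile of its group, CCND1 at the 81.6 and E2F1 at the 90.6.

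The members differed widely in base composition. The HIF1A transcript was 37.2% G or C, at the 6.11 percentile of genes, CCND1 was at the 56.7 percentile, and E2F1 was 62.5% G or C, at the 92.7. Ratios moved with this measure across the libraries: over 14081 genes Spearman's rho between GC content and log2 ratio was -0.59 for wild type over GST, 0.54 for Ala mutant over GST and -0.67 for wild type over Ala mutant. These are descriptions across genes of single libraries, and the part of base composition in the members' ratios was not tested.

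Against genes within 2 percentage points of its own GC content, E2F1 stood above most in both comparisons with wild type. The 1155 such genes had a median log2 ratio of wild type to GST of -2.57, against 1.03 for E2F1, which was at their 96.0 percentile. For wild type over Ala mutant their median was -3.29, against 0.63 for E2F1, at the 95.1 percentile. Among genes of this composition, 151 held a heptamer in the 3' UTR, with a median of -0.52 for wild type over GST, and E2F1 was at their 86.1 percentile. Another 868 held none, with a median of -2.87, and E2F1 was at the 98.0 percentile of these. Only 5 genes of this composition, E2F1 among them, held 3 or more, and E2F1 was their median in both comparisons.

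HIF1A lay on the other side of its GC class. The 1505 genes of similar composition had a median of 1.02 for wild type over GST and 1.48 for wild type over Ala mutant, and HIF1A was at their 26.7 and 34.2 percentiles. CCND1 was near the middle of its 1829 genes, at the 58.8 and 52.2 percentiles, with medians of -0.21 and -0.31. For wild type over GST, HIF1A was at the 17.1 percentile of its class with a heptamer and the 36.2 without, and CCND1 at the 37.5 and 62.0. For Ala mutant over GST the members were at the 33.6 (HIF1A), 69.5 (CCND1) and 35.5 (E2F1) percentiles of their classes. The HIF1A call in wild type over Ala mutant ended, and the value turned negative, when a fit on GC content and length was subtracted: HIF1A was then 0.51 below its fitted value, at -0.51.

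**Figure D4:**
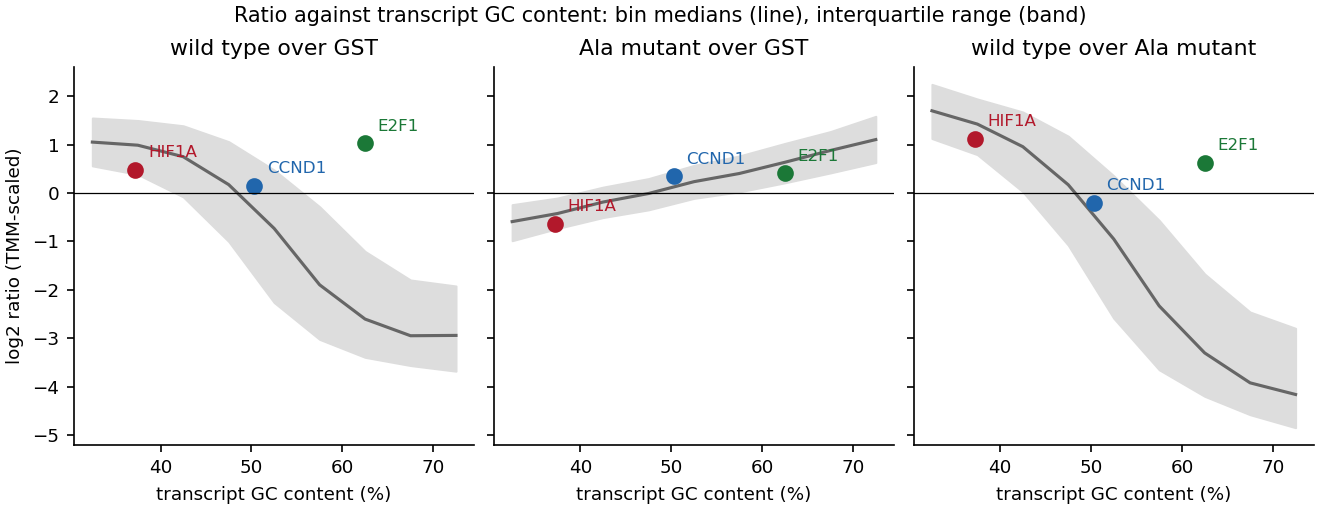
Log2 ratio (vertical axis, TMM-scaled) against transcript GC content (horizontal axis, percent) in the 3 comparisons, with the median of all genes per GC bin as a line, their interquartile range as a band and the members as points. E2F1 lies above the band in wild type over GST and wild type over Ala mutant, and HIF1A lies below the line in all 3 panels.

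HIF1A was the member whose counts were divided between transcripts. Of its 12 transcripts in the tables, 4 reached a mean of 10 estimated counts and 6 were at 0 in every library. HIF1A-201 (ENST00000323441), which lacks exon 14 of the 15 exons of HIF1A-202, received 643 estimated counts with GST, 1160 with wild type and 221 with the Ala mutant. These were 81.7% of the gene's counts with GST, 99.6% with wild type and 48.1% with the mutant. The transcript without exon 14 thus took nearly all HIF1A counts with wild type and under 50% with the mutant.

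Exon 14 is 127 bases long (chr14:61745691-61745817, within the coding sequence of HIF1A-202). The coding transcripts that contain it and had counts, HIF1A-202 and HIF1A-203, were assigned 142 estimated counts together with GST, 0 with wild type and 192 with the Ala mutant. That was 18.0% of HIF1A counts with GST and 41.7% with the mutant, or 16.2% and 25.6% by TPM. The 0 with wild type is an estimate from dividing shared reads, not a count of exon 14 reads, and does not show that such reads were absent. HIF1A-201 holds 0 of the 127 bases of exon 14. All measured transcripts with that exon together, HIF1A-209 included, were assigned 3.1 estimated counts with wild type.

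Transcripts with a retained intron, HIF1A-205 and HIF1A-209, received 2.64 estimated counts with GST, 3.54 with wild type and 47.0 with the mutant. Their share of HIF1A was 0.335%, 0.304% and 10.2% in that order, and by TPM 2.12%, 1.77% and 41.6%. Most of it was HIF1A-209, a transcript of 752 bases with 0, 3.1 and 38.2 estimated counts, which contains exon 14, 539 bases of the last exon and 86 intronic bases. By TPM HIF1A-209 took 33.4% of HIF1A with the mutant, against 32.8% for HIF1A-201. With HIF1A-209 included, transcripts with exon 14 took 18.0% of HIF1A counts with GST, 0.268% with wild type and 49.99% with the mutant. It also holds the 3 heptamers, as do all full coding transcripts of HIF1A, since they end in the same last exon and carry both HIF1A windows.

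At the level of the single transcript, HIF1A-201 had a log2 ratio of 0.77 (0.63 to 0.91) for wild type over GST and -1.40 (-1.63 to -1.18) for Ala mutant over GST. Between wild type and mutant it differed 4.49-fold (log2 ratio 2.17, 1.96 to 2.38), more than the 2.17-fold of the whole gene. HIF1A-202 went the other way between mutant and GST, with a log2 ratio of 0.53 (0.16 to 0.91), as did HIF1A-203 with 0.69 (0.06 to 1.35). These intervals treat the estimated counts as counted reads and leave out the error of dividing reads between transcripts. Few 31-base words mark a single transcript here: 0.85% of the 31-base words of HIF1A-201, 0.77% of those of HIF1A-203 and 0% of those of HIF1A-202 occur in no other. HIF1A-201 also has a shorter first exon, 63 of the 300 bases of that of HIF1A-202. The exon junctions themselves were not counted here, and whether the division reflects the RNA or the assignment of reads was not tested.

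**Figure D5:**
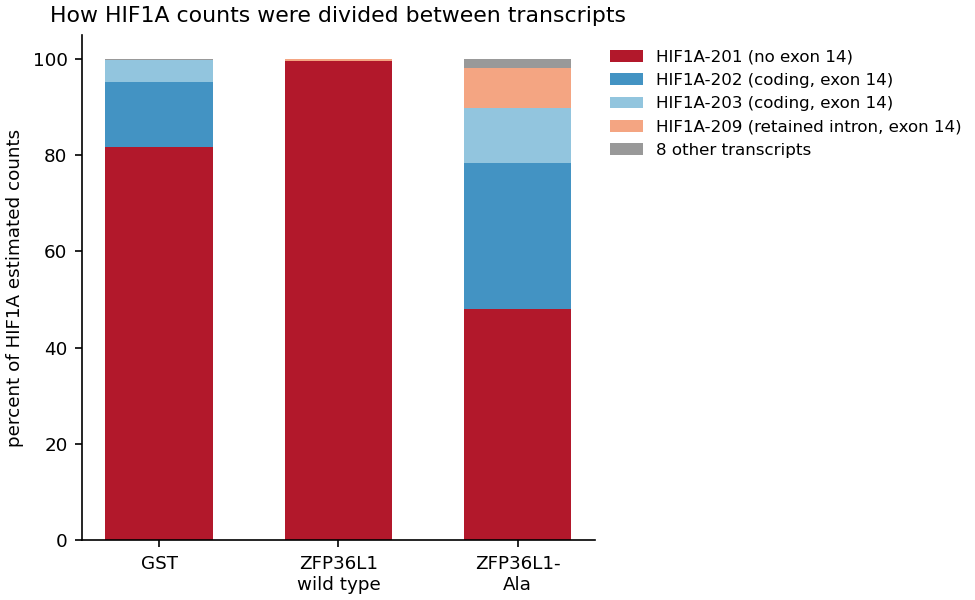
Percent of HIF1A estimated counts (vertical axis) assigned to each transcript in the GST, wild-type and Ala libraries, as stacked bars that sum to 100. Coding transcripts with exon 14 (blue) are assigned 18.0% with GST, 0 with wild type and 41.7% with the Ala mutant, and HIF1A-209 (orange), which also holds exon 14, adds 8.31% with the mutant.

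CCND1 counts came almost wholly from 1 transcript, CCND1-201 (ENST00000227507, 4307 bases, 5 exons), with 4776, 5594 and 5512 estimated counts. CCND1-203, whose 3' UTR of 241 bases ends before the site, received 1.2 estimated counts with GST, 0 with wild type and 3.8 with the mutant. CCND1-201 is the single coding transcript in the tables with the long 3' UTR, and a CCND1 mRNA with a shortened 3' UTR would also be assigned to it, so the length of the 3' UTR was not measured.

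The CCND1 value carries an overlap. LTO1, an adjacent gene on the opposite strand, shares 497 exonic bases with CCND1, all in the CCND1 3' UTR. The strand setting of the counting is not given in the sources used here, so reads of the shared bases cannot be told apart. LTO1 transcripts that overlap CCND1 received 1413 estimated counts with GST, 4373 with wild type and 2696 with the mutant, nearly all from 1 short transcript of 696 bases. LTO1 transcripts that do not overlap received 338, 708 and 350. The overlapping ones differed from GST by a log2 ratio of 1.55 with wild type and 1.07 with the mutant, against 0.98 and 0.19 for the others.

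With the overlapping LTO1 transcripts added to CCND1, an alternative chosen after seeing the data, the sums were 6190, 9967 and 8214 estimated counts. The log2 ratio was then 0.60 (0.56 to 0.65) for wild type over GST, 0.55 (0.50 to 0.60) for Ala mutant over GST and 0.06 (0.01 to 0.10) for wild type over Ala mutant. Every value stayed under 2-fold, and the last changed sign from -0.20.

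E2F1 was the simplest to count. Its single transcript, E2F1-201 (ENST00000343380, 2503 bases, 7 exons on the minus strand), shares almost no sequence with others, and 99.8% of its 31-base words occur in no other transcript. No gene of GENCODE 29 was found to overlap its exons. HIF1A shares 117 exonic bases with the antisense gene HIF1A-AS1, which had 3, 3 and 0 counts, against 460 or more for HIF1A.

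The pathway around each member was read from lists of its known genes, written with earlier results of these data known. HIF pathway regulators, which include hydroxylases, ubiquitin ligase subunits, partners of HIF1A and related alpha subunits, had 18 of 21 genes measured. With wild type over GST 9 were called higher and 4 lower, where 25.5% and 34.2% of all genes were, with a median log2 ratio of 0.91. EPAS1, the related HIF2 alpha subunit, gave 133, 532 and 123 counts with GST, wild type and mutant (log2 ratio of wild type to GST 1.91). ELOC, a subunit of the VHL ubiquitin ligase, was also higher (1.65). EGLN2, a HIF prolyl hydroxylase, was lower (-2.72), as was RACK1, a ribosomal protein that also binds HIF1A (-4.00). EPAS1 was thus high with wild type alone, where HIF1A was 1.40-fold higher.

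Among HIF target genes, 26 of 30 were measured, 9 were called higher and 5 lower with wild type over GST (25.5% and 34.2% of all genes), and the median was 0.68. With protein-coding transcripts alone 25 were measured and 7 were called each way, where 2847 of 10995 genes were higher and 3970 lower. The median then turned to -0.16, so its direction depended on which transcripts were counted. MXI1, a MYC antagonist, gave 343, 2624 and 236 counts (log2 ratio 2.85) and KDM3A, a histone demethylase, 313, 2145 and 375 (2.69). ENO1, a glycolytic enzyme, was lower with 31801, 2160 and 45210 counts (-3.96), as was HMOX1, which degrades heme (-3.22). The list therefore held genes far above and far below HIF1A itself.

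Of the cyclin D, CDK4/6 and RB axis 21 of 22 genes were measured, 9 were called higher and 4 lower with wild type over GST (25.5% and 34.2% of all genes), and the median was 0.64. With a minimum mean of 100 counts, 18 were measured, of which 5 were called higher and 3 lower, where 2572 and 3342 of 9645 genes were. CDK6, a cyclin D partner kinase, gave 501, 1533 and 379 counts (log2 ratio 1.53), and CCNE1, cyclin E1, 675, 2039 and 898 (1.51). AMBRA1 and FBXO31, substrate receptors of ligases that degrade cyclin D1, were lower, with 198, 7 and 178 counts (-4.80) and 332, 17 and 402 counts (-4.33). CCND1 lay between these groups.

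All 9 listed genes of the E2F family beside E2F1, DP partners included, were measured, with 5 called higher and 2 lower for wild type over GST (25.5% and 34.2% of all genes) and a median of 1.22, against 1.03 for E2F1. After a fit on GC content and length was subtracted, 3 were called higher and 1 lower, where 3168 and 3039 of 14081 genes were. The order then turned, with a median of 0.68 against 3.15 for E2F1. TFDP1, the main dimer partner of E2F1, gave 1865, 11245 and 1868 counts (log2 ratio 2.51). E2F2 gave 415, 88 and 455 counts (-2.31), and TFDP2 363, 163 and 510 (-1.23). Activator E2Fs thus stood on both sides, with E2F1 called higher and E2F2 called lower. Of the E2F target genes 28 of 30 were measured, 5 were called higher and 8 lower (25.5% and 34.2% of all genes), and the median was 0.01. From TPM it was 0.22 (6 higher and 8 lower of 28, against 3321 and 3907 of 11925 genes). It was -0.32 with protein-coding transcripts alone (6 higher and 11 lower of 27, against 2847 and 3970 of 10995 genes). After the fit on GC content and length it was -0.67 (3 higher and 9 lower of 28, against 3168 and 3039 of 14081 genes). CHEK1, a checkpoint kinase (1.69), and CDK1, the mitotic kinase (1.59), were higher, while MCM7, a replicative helicase subunit (-4.06), and CDT1, a licensing factor (-3.34), were lower.

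For Ala mutant over GST, where 9.00% of all genes were called higher and 5.15% lower, 5 list genes passed the limit. The medians were -0.15 for HIF regulators, 0.08 for HIF targets, -0.05 for the cyclin D axis, 0.13 for the E2F family and -0.05 for E2F targets. Higher were ELOB (1.61) and EGLN2 (1.16) among regulators, JMJD6 (1.02) among HIF targets and MYBL2 (1.18) among E2F targets, and lower was E2F8 (-1.39), an atypical repressor E2F. With libraries scaled by totals without the most abundant genes, regulators had 1 call higher, and HIF and E2F targets had 0 higher and 2 and 1 lower. Over all 14081 genes this scaling called 779 higher and 1237 lower. The medians of HIF targets and of the E2F family were then -0.13 and -0.08, so their sign depended on the scaling. That of E2F targets also changed sign, to 0.02 with protein-coding transcripts alone and 0.07 after the fit on GC content and length.

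For wild type over Ala mutant the calls higher and lower were 10 and 4 for HIF regulators (median 1.04), 14 and 6 for HIF targets (1.07) and 7 and 5 for the cyclin D axis (0.63), where 30.1% and 36.0% of all genes were called. They were 6 and 3 for the E2F family (1.59) and 5 and 8 for E2F targets (0.06), against the same shares of all genes. The E2F target median moved both ways with the setting. From TPM it was 0.67 (8 and 7 of 28, against 4295 and 3879 of 11925 genes). With totals that leave out the most abundant genes it was 0.38 (8 and 7 of 28, against 5187 and 4619 of 14081 genes). It turned to -0.29 with protein-coding transcripts alone (6 and 13 of 27, against 3368 and 4189 of 10995 genes). It was -0.63 after the fit on GC content and length (3 and 11 of 28, against 3310 and 3382 of 14081 genes). E2F7 (2.86), CDKN2C (2.02), CUL2 (1.92) and MXI1 (3.25) were among the highest of their lists. HIF1A, at 1.12, was close to the medians of its pathway lists, and E2F1, at 0.63, was below that of its family. Both placements turned after that fit, with HIF1A at -0.51 against medians of 0.69 for HIF regulators and 0.39 for HIF targets, and E2F1 at 3.30 against 0.91. With it, HIF regulators had 5 calls higher in place of 9 for wild type over GST, where 3168 of 14081 genes were higher. For wild type over Ala mutant they had 5 in place of 10, where 3310 of 14081 genes were higher.

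The protein-coding genes with the pattern nearest to each member were found by the Euclidean distance of centred log2 CPM over the 3 libraries, among 9149 genes. For HIF1A they were ZDHHC13, a palmitoyltransferase (distance 0.017), ITGAV, integrin alpha V (0.021), and AP1G1, an adaptor subunit (0.021). For CCND1 they were NFYC, a subunit of a CCAAT-binding factor (0.012), SLC25A11, a mitochondrial carrier (0.014), and VPS39, a vesicle tethering subunit (0.033). For E2F1 they were AKIRIN1 (0.022), IP6K2, an inositol hexakisphosphate kinase (0.023), and PTCD3, a mitochondrial ribosome-associated protein (0.024). None of these patterns was rare, since 225, 201 and 153 genes lay within 0.2 of HIF1A, CCND1 and E2F1. The E2F1 neighbours held 0 heptamers in the 3' UTR, as did ZDHHC13 and VPS39, whereas ITGAV held 2 and AP1G1, NFYC and SLC25A11 1 each.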

How the data were processed

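RNA bound by GST, GST-ZFP36L1 wildtype and GST-ZFP36L1-Ala in J82 lysate was sequenced on a BGISEQ-500, 1 library each. The submitters' processing notes name kallisto, DESeq2 and hg19. Not given in the sources used here are versions, annotation release, strand setting and what DESeq2 was used for. The deposited tables hold estimated counts per transcript from kallisto and TPM values, which the authors' pipeline scaled to a fixed total per library. Transcripts were joined by identifier to GENCODE 29 (GRCh38): 181854 of 196354 matched, 93.2% of them with the same length. The unmatched held 3.92%, 3.79% and 4.20% of counts.

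Estimated counts were summed per gene, rounded and kept at a mean of at least 10. Scaling used TMM from edgeR 4.0.16 (R 4.3.3), with factors 1.03, 1.05 and 0.933, and 0.5 was added as prior count for log2 ratios. Intervals (95%) are exact Clopper-Pearson, from scipy 1.17.1, and calls need a 2-fold ratio and an interval that excludes 1. The count precision of the 3 libraries is given by these intervals. Genes named from a list are among its 2 highest or 2 lowest ratios in a comparison, at a mean of at least 100 counts. The 3 nearest genes by pattern are named. Members and lists were chosen with earlier results of these data known. Alternatives were other scalings (totals, totals without the 20 most abundant genes, DESeq2 1.42.0 size factors), minimum counts, prior count, protein-coding transcripts, TPM, a fit on GC content and length, and thinning to equal depth. The scripts' calls were run on simulated data with counting error alone. Such data hold no spread between pull-downs, so they cannot test the calls against it.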

Additional observations from a re-analysis of the deposited data

How the results depend on the processing

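No paired analysis was possible because each group has 1 library. Settings shifted the median of all genes: totals by -0.14 for Ala mutant over GST and 0.16 for wild type over Ala mutant, totals that leave out the most abundant genes by 0.11 for wild type over GST, -0.21 and 0.32, and TPM by -0.21 and 0.29 for the comparisons with the mutant. A minimum mean of 100 counts, with 9645 genes tested, shifted it by 0.093 for wild type over GST and 0.16 for wild type over Ala mutant. Log2 ratios that moved beyond their counting interval follow. With totals, CCND1 was 0.21 and E2F1 0.27 for Ala mutant over GST, and HIF1A was 1.28, CCND1 -0.038 and E2F1 0.79 for wild type over Ala mutant. With these reduced totals, CCND1 was 0.26 and E2F1 1.14 for wild type over GST, HIF1A -0.85, CCND1 0.14 and E2F1 0.19 for Ala mutant over GST, and HIF1A 1.44, CCND1 0.12 and E2F1 0.95 for wild type over Ala mutant. From TPM, HIF1A was 0.69, CCND1 0.35 and E2F1 1.23 for wild type over GST, -0.35, 0.075 and 0.12 for Ala mutant over GST, and CCND1 0.27 and E2F1 1.11, now called, for wild type over Ala mutant. By TPM, HIF1A-201 took 97.5% of HIF1A with wild type and 32.8% with the mutant. Without a minimum count CCND1 was 0.27 for Ala mutant over GST and -0.14 for wild type over Ala mutant, where E2F1 was 0.69. With protein-coding transcripts alone these were 0.42, -0.29 and 0.54. With LTO1 added, chosen after seeing the data, CCND1 was 0.60, 0.55 and 0.056. Distances from the fit on GC content and length were -0.61 for HIF1A, 0.36 for CCND1 and 3.15 for E2F1 (wild type over GST), -0.10 for HIF1A and -0.15 for E2F1 (Ala mutant over GST), and -0.51, -0.0093 and 3.30, now called, for HIF1A, CCND1 and E2F1 (wild type over Ala mutant). The cause of these moves was not tested. Genes called lower for wild type over GST were 3039 with the fit, against 4820. For Ala mutant over GST, genes called higher were 1267, and 779 with the reduced totals, 581 with a minimum of 100, 548 from TPM and 547 with the fit. Genes called lower were 725, and 1237 with the reduced totals, 1168 without a minimum and 364 with a minimum of 100. The number of genes tested differed between these settings, so the counts are not shares of the same total. It was 14081 in the main setting, with the reduced totals and with the fit. It was 25018 without a minimum, 9645 with a minimum of 100 and 11925 from TPM. For Ala mutant over GST the share of calls that were higher was 63.6%, against 48.0% with totals, 38.6% with the reduced totals and 42.6% from TPM. The other alternatives (DESeq2 size factors, thinning to equal depth and a prior count of 5) left the members' calls as they were. With 1 library each, the spread between pull-downs could not be measured, and depth limits mainly HIF1A, whose intervals are the widest.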
